A study of Mus musculus with 12 samples.

Results

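Transcripts of 9 genes of blood clotting and plasminogen activation were measured in ribosome precipitates from mouse melanoma. The genes were F3, Tfpi, F8, Vwf, Thbd, Procr, Plau, Plaur and Plat, taken by their symbols from a table of 24421 gene symbols, and all 9 passed the filter on low counts. The 12 libraries came from subcutaneous tumours of B16F10, the highly metastatic line (n = 7), and of B16F0, the poorly metastatic line (n = 5). All hosts were C57BL/6 mice of the genotype Rpl22fl/flHA;Cdh5(PAC)-CreERT2 that carried their tumour for 12 days and received tamoxifen, and their age was not given. In these mice the endothelial Cdh5 promoter drives an inducible Cre recombinase that adds an HA tag to Rpl22, a ribosomal protein. Pulling down the tag enriches for mRNA that is being translated in vessel lining cells. Both groups carry the tag and the treatment, and by the labels they differ in the implanted line. Host sex was not a term in the fits. Whether libraries of a group came from separate animals is not stated, so a p-value measures only the spread between these libraries.

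Clotting starts when tissue factor, the product of F3, binds a plasma protease and sets off a chain of further proteases that ends in thrombin and fibrin. Resting endothelium holds the chain in check with the tissue factor pathway inhibitor, with thrombomodulin and with the endothelial protein C receptor, and it stores von Willebrand factor, the carrier of factor VIII. The plasminogen activators uPA and tPA turn plasminogen into plasmin, which dissolves fibrin. In tumours uPA on its receptor is known for matrix breakdown at the cell surface.

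The precipitates held vessel and tumour transcripts side by side, in proportions that varied between libraries. Total counts ran from 5322510 to 20569186 in B16F10 and from 10753106 to 17381336 in B16F0. The endothelial marker Cdh5 ran from 78.6 to 711 CPM (counts relative to the scaled library total) in B16F10 and from 98.7 to 764 CPM in B16F0, and the melanocyte enzyme gene Dct from 4033 to 7975 CPM in B16F10 and from 4720 to 9968 CPM in B16F0. The endothelial score, the mean log2 CPM of 20 endothelial genes that include none of the 9, was 5.13 ± 1.02 in B16F10 and 5.11 ± 1.12 in B16F0 (SD, n = 7 and 5; exact permutation test, two-sided, p = 0.965). It was highest in B16F10 replicates 4 and 5, at 6.85 and 6.26, and in B16F0 replicate 3, at 6.95, and it lay between 3.90 and 5.06 in the other 9 libraries. The first 3 are called the endothelium-rich libraries here. The precursor of ribosomal RNA, Rn45s, made up 31.4% of the counts of B16F10 replicate 5 and 8.91% of those of B16F0 replicate 5. The Y-linked gene Ddx3y ran from 0 to 29.2 CPM in B16F10 and from 0.0669 to 78.1 CPM in B16F0, so libraries of the same line differed in it. The liver genes Alb, Apoa1 and Ttr stayed at or under 1.5 CPM in B16F10 and 0.838 CPM in B16F0. Summed over the 4 platelet markers tested of 10, levels ran from 6.07 to 15.3 CPM in B16F10 and from 4.42 to 12.1 CPM in B16F0. In such mixed material, fewer cells of a type and less RNA per cell cannot be told apart.

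Per kilobase of merged exons the 9 genes spanned a wide range of levels. Tfpi stood highest, at 29.3 ± 8.21 CPM per kilobase in B16F10 and 40.0 ± 8.33 in B16F0 (SD, n = 7 and 5). F3 followed in the mean over all 12 libraries, with 22.6 ± 4.81 in B16F10 and 15.3 ± 2.98 in B16F0. Plau came next, with 15.1 ± 8.42 in B16F10 and 24.6 ± 13.3 in B16F0. Procr stood at 8.21 ± 4.60 in B16F10 and 16.5 ± 3.99 in B16F0. Vwf, Plaur and Thbd came next, with means of 4.77, 4.48 and 3.34 CPM per kilobase in B16F10 and 3.66, 3.90 and 2.73 in B16F0. Plat and F8 were lowest, at 1.87 ± 1.1 and 0.685 ± 0.215 CPM per kilobase in B16F10 and 1.72 ± 1.36 and 1.48 ± 0.675 in B16F0. F3 and Plau, and likewise the neighbours among Vwf, Plaur, Thbd and Plat, differed by less than their spread.

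**Figure D1:**
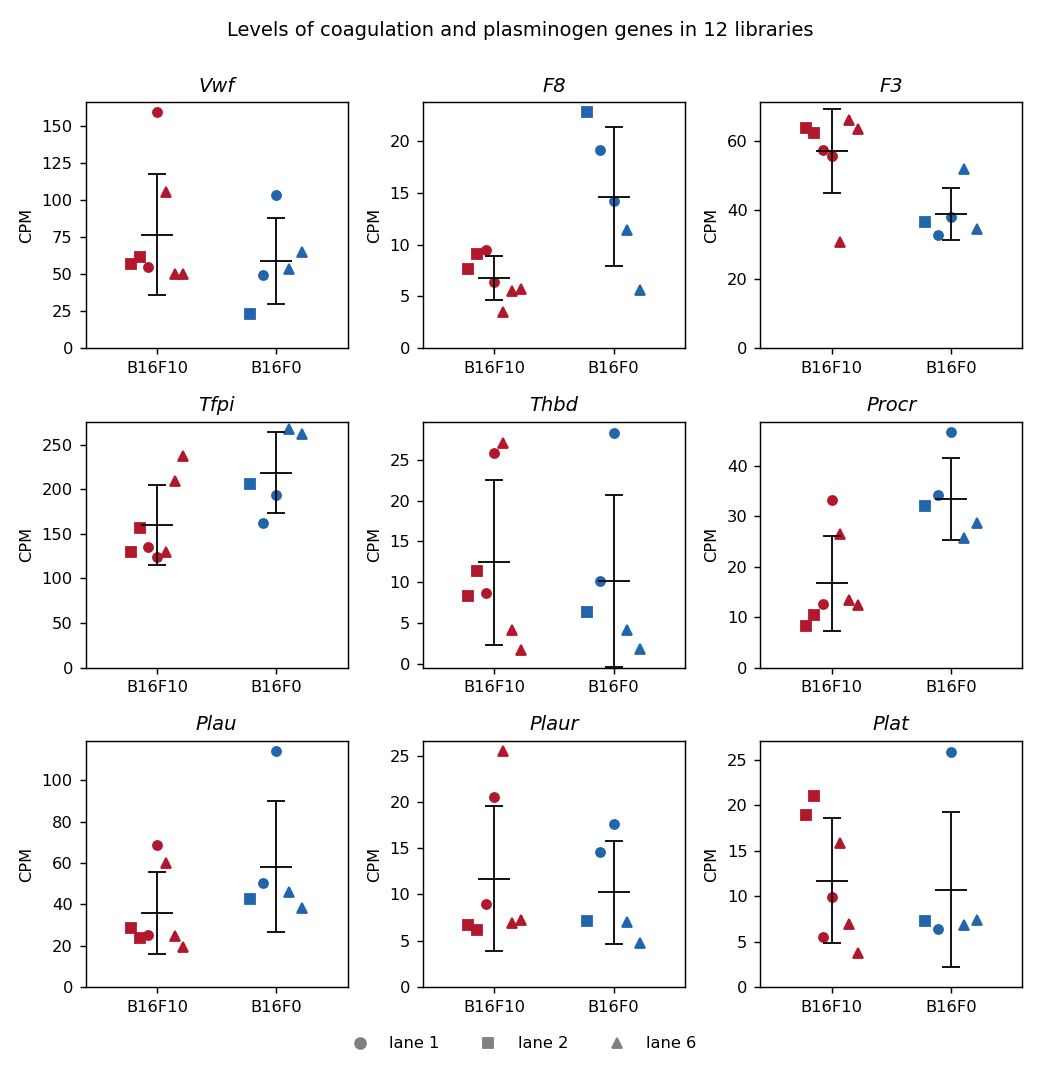
Level of each gene in CPM (vertical axis) in the 7 B16F10 and 5 B16F0 libraries. Points are libraries, their shape gives the sequencing lane, and bars show the mean ± SD. Procr lies between 8.18 and 33.2 CPM in B16F10 and between 25.8 and 46.8 CPM in B16F0, while Thbd spans 1.74 to 27.0 CPM within B16F10 alone.

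The 9 genes were proposed with the difference between the tumour lines in view. Their fold changes are therefore a description, with no test, and nothing is read from the count of those that passed. The lane was in the fit, with and without the endothelial score beside it. In the fit without the score 1 of 9 genes passed a false discovery rate of 0.05 over all 13534 genes, F8, against 2.77% of all genes (1.3% higher and 1.47% lower in B16F10). With the score 3 of 9 passed, F8, Procr and Plau, all lower in B16F10, against 3.53% of all genes (1.58% higher and 1.95% lower). For 0 of 9 genes did the libraries of the lines lie fully apart, against 1.27% of all genes with B16F10 higher and 1.46% with B16F10 lower. The median log2 fold change of the 9 was 0.051 without and -0.11 with the score, beside 0.019 and 0.0084 over all genes.

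Among the genes that start clotting, tissue factor stood higher and its inhibitor lower in B16F10, and neither passed. F3 encodes the membrane receptor that starts the clotting chain, and it lies on chromosome 3 from 121723537 to 121735048 (GRCm38, plus strand). It ran from 30.8 CPM to 66.1 CPM in B16F10, with a median of 62.2 CPM, against 36.5, 32.8, 37.8, 51.7 and 34.6 CPM in B16F0 replicates 1 to 5. In 6 of the 7 B16F10 libraries F3 was above all B16F0 libraries, and replicate 5, the library rich in Rn45s, was below them. The log2 fold change was 0.55 ± 0.20 (SE) without and 0.55 ± 0.19 with the endothelial score, and the differences of mean log2 CPM in lanes 1, 2 and 6 were 0.68, 0.79 and 0.26. Without B16F10 replicate 5 the log2 fold change was 0.68 and F3 passed, as it did at 0.71 without the 3 endothelium-rich libraries.

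Tfpi encodes the inhibitor of the tissue factor complex (chromosome 2, 84432855 to 84476775, minus strand). It ran from 124 to 237 CPM in B16F10, with a median of 135 CPM, against 206, 162, 194, 268 and 262 CPM in B16F0 replicates 1 to 5. In 5 of 7 B16F10 libraries it was below all B16F0 libraries, and the groups overlapped through B16F10 replicates 6 and 7, at 209 and 237 CPM. The log2 fold change was -0.48 ± 0.15 (SE) without and -0.47 ± 0.15 with the score. Within lanes 1, 2 and 6 the difference was steady, at -0.45, -0.53 and -0.51.

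F8, which encodes the cofactor that speeds up factor X activation, was the lowest of the 9 per length and the gene that passed in both fits. It lies on chromosome X from 75172715 to 75382615 (minus strand). It ran from 3.48 to 9.50 CPM in B16F10, with a median of 6.40 CPM, against 22.8, 19.2, 14.2, 11.4 and 5.66 CPM in B16F0 replicates 1 to 5. In 4 of the 5 B16F0 libraries F8 was above all B16F10 libraries, and the exception was B16F0 replicate 5, the library of that group richest in Rn45s. The log2 fold change was -1.04 ± 0.22 (SE) without the score and -1.05 ± 0.21 with it, about 0.485 times the B16F0 level in both fits. In lanes 1, 2 and 6 the differences of mean log2 CPM were -1.07, -1.43 and -0.72.

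The call of F8 was not steady, and it held in 16 of 28 other settings without the score and in 21 of 29 with it. Without the score it was lost when B16F10 replicate 1, 2 or 4 or B16F0 replicate 1, 2 or 4 was left out, with log2 fold changes from -1.03 to -0.92. With the score it was lost without B16F0 replicate 1 or 4 (-0.91 and -0.94). In both fits it was also lost without lane 2, without the endothelium-rich libraries and with the mural or the melanocytic score as a further term, with log2 fold changes from -0.96 to -0.68. It was lost as well with no lane term (-1.11 in both fits). With the replicate number in place of lane it was also lost in both fits (-0.95 without and -0.96 with the score). The gene Fundc2 overlaps F8 on the opposite strand, its span holds 121 bases of F8 exons, and the strand setting of the counting is not given. Fundc2 stood at 78.1 ± 18.9 CPM in B16F10 and 108 ± 34.4 CPM in B16F0 (SD, n = 7 and 5), with a log2 fold change of -0.42. Its part in the F8 counts was not tested. The lymphatic or sinusoidal endothelial markers, 8 tested of 9, summed to 116 to 517 CPM in B16F10 and 116 to 509 CPM in B16F0. Of the 8, 0 passed without and 1 with the endothelial score, against 2.77% and 3.53% of all genes. Prox1 ran from 7.18 to 8.82 CPM in B16F10 and from 9.01 to 16.1 CPM in B16F0. Reln ran from 0.986 to 10.4 CPM in B16F10 and from 0.169 to 4.23 CPM in B16F0. Lyve1, Mmrn1 and Stab2 reached 9.08, 4.33 and 4.86 CPM in B16F10 and 47.4, 15.2 and 18.4 CPM in B16F0. Pdpn, Flt4 and Stab1 reached 38.6, 233 and 241 CPM in B16F10 and 45.8, 217 and 237 CPM in B16F0. Flt4 and Stab1 weigh most in the upper ends of the sums. The part of these cells in the F8 level was not tested.

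Vwf, which encodes the adhesive carrier of factor VIII that endothelial cells store in Weibel-Palade bodies, did not pass in either fit. It is on chromosome 6 from 125546774 to 125686679 (plus strand). It ran from 49.7 to 159 CPM in B16F10, with a median of 56.9 CPM, against 23.3, 49.2, 103, 53.5 and 65.0 CPM in B16F0 replicates 1 to 5. The groups overlapped, and the highest levels were those of the libraries rich in endothelial transcripts. The log2 fold change was 0.54 ± 0.32 (SE) without and 0.37 ± 0.25 with the score. In lanes 1, 2 and 6 the difference was 0.39, 1.33 and 0.12, and lane 2 holds B16F0 replicate 1, the lowest library. With the melanocytic score as a further term the log2 fold change turned to -0.12 in both fits, and with the mural score beside the endothelial one to -0.038.

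In the protein C branch Procr passed with the score and Thbd in neither fit, and the genes were not tested against each other. Procr encodes the endothelial protein C receptor, which presents protein C to the thrombin and thrombomodulin complex, and it lies on chromosome 2 from 155751117 to 155755471 (plus strand). It ran from 8.18 to 33.2 CPM in B16F10, with a median of 12.6 CPM, against 32.0, 34.2, 46.8, 25.8 and 28.6 CPM in B16F0 replicates 1 to 5. In 5 of 7 B16F10 libraries Procr was below all B16F0 libraries, and those that overlapped were the endothelium-rich replicates 4 and 5. The log2 fold change was -0.98 ± 0.28 (SE) without the score, where it did not pass, and -1.14 ± 0.17 with it, where it passed, so that the level at equal score was 0.453 times that of B16F0. In lanes 1, 2 and 6 the difference was -0.96, -1.77 and -0.72. Without the score Procr passed in 9 of 28 other settings, 1 of them a false discovery rate of 0.1. Among them were DESeq2 (-0.98), limma-voom (-1.07) and the fit without the 3 endothelium-rich libraries (-1.35). It passed in 2 of 12 fits that left out 1 library. With the score in the fit Procr passed when any single library was left out, with log2 fold changes from -1.29 to -0.97. These subsets share most of their libraries and are not separate tests. With the replicate number in place of lane it did not pass (-1.25, edgeR adjusted p = 0.172).

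Thbd encodes thrombomodulin, which turns thrombin from a clotting enzyme into an activator of protein C (chromosome 2, 148404466 to 148408188, minus strand). It ran from 1.74 to 27.0 CPM in B16F10, with a median of 8.71 CPM, against 6.36, 10.2, 28.2, 4.17 and 1.89 CPM in B16F0 replicates 1 to 5. The groups overlapped over nearly their whole range, and the highest library was 16.2 times the lowest, the widest span of the 9 genes. Its log2 fold change was 0.78 ± 0.65 (SE) without and 0.37 ± 0.28 with the score, and lanes 1, 2 and 6 differed in sign at -0.18, 0.61 and 1.03. In the fit without the score the value was -0.061 once the 2 libraries with more than 5% Rn45s were left out, and -0.23 with the melanocytic score as a further term.

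In the plasminogen group the activator gene Plau stood lower in B16F10, and the receptor gene and the other activator gene showed no steady direction. Plau encodes urokinase, uPA (chromosome 14, 20836660 to 20843385, plus strand). It ran from 19.3 to 68.8 CPM in B16F10, with a median of 24.9 CPM, against 42.5, 50.3, 114, 46.1 and 38.2 CPM in B16F0 replicates 1 to 5. The 5 B16F10 libraries of lower endothelial score were below all B16F0 libraries, and B16F10 replicates 4 and 5 overlapped them. For Plau the log2 fold change was -0.58 ± 0.33 (SE) without the score, where it did not pass, and -0.77 ± 0.12 with it, where it passed. Within lanes 1, 2 and 6 the difference was -0.87, -0.70 and -0.46. Without the score Plau passed in 2 of 28 other settings. These were the fit without the 3 endothelium-rich libraries (-0.87) and that with the melanocytic score as a further term (-1.26). With the score Plau passed when any single library was left out, with log2 fold changes from -0.84 to -0.71. With the replicate number in place of lane it did not pass (-0.76, edgeR adjusted p = 0.263).

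Plaur encodes the cell surface receptor of uPA (chromosome 7, 24462484 to 24475968, plus strand). It ran from 6.20 to 25.5 CPM in B16F10, with a median of 7.20 CPM, against 7.09, 14.6, 17.6, 7.05 and 4.72 CPM in B16F0 replicates 1 to 5. The groups overlapped, and the log2 fold change was 0.37 ± 0.39 (SE) without and 0.13 ± 0.22 with the score. Plat encodes tissue plasminogen activator, tPA, the main activator of fibrin dissolution in blood (chromosome 8, 22757727 to 22782844, plus strand). It ran from 3.72 to 21 CPM in B16F10, with a median of 9.95 CPM, against 7.23, 6.41, 25.9, 6.77 and 7.33 CPM in B16F0 replicates 1 to 5. Its log2 fold change was 0.051 ± 0.50 (SE) without and -0.11 ± 0.34 with the score, and lanes 1, 2 and 6 gave -0.80, 1.44 and 0.080.

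**Figure D2:**
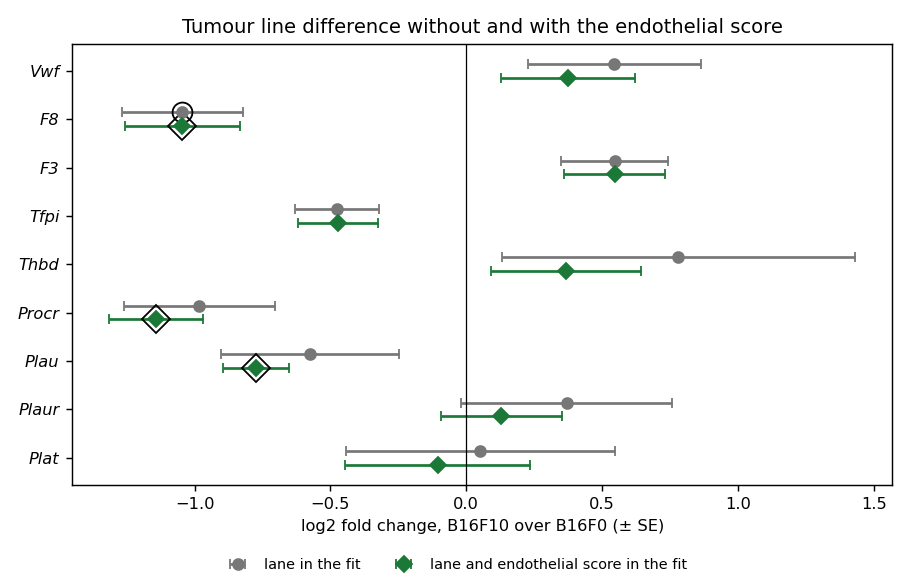
Log2 fold change of each gene, B16F10 over B16F0 (horizontal axis, ± SE), with the lane in the fit (grey circles) and with the lane and the endothelial score (green diamonds). Open black outlines mark values past the false discovery rate over all genes, which are F8 in both fits and Procr and Plau with the score.

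The authors' deposited table gives log2 fold changes of -0.61 for Plau, -1.04 for Procr and -1.06 for F8, with false discovery rates of 0.251, 0.0267 and 0.0124.

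The 9 genes differed in how they varied with endothelial content among libraries of the same line and lane. This slope, in log2 units per unit of the score, is a separate coefficient from the tumour line difference that the genes were chosen on. The genes and the other lists below were still chosen with earlier results of these data known. Their counts of slopes are therefore a description and not an independent test. It was positive and passed for 4 of 9 genes, Thbd, Plau, Plaur and Procr, and negative for none past the threshold, against 4.32% of all genes with a positive and 0.369% with a negative slope. The median slope of the 9 was 0.49, beside -0.0028 over all genes. Pecam1 and Emcn, which are in the score, had slopes of 1.09 and 0.90.

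Thbd had the steepest slope, 1.17 ± 0.16 (SE; edgeR adjusted p = 0.000623), or 2.26 times the level per unit of score. It stood at 25.8, 27.0 and 28.2 CPM in the 3 endothelium-rich libraries, B16F10 replicates 4 and 5 and B16F0 replicate 3, and at up to 11.4 CPM in the others. Plau had a slope of 0.67 ± 0.075 (SE; edgeR adjusted p = 0.000155), and Plaur one of 0.66 ± 0.13 (0.00927). Procr was shallower, at 0.49 ± 0.11 (SE; edgeR adjusted p = 0.0182). The slopes of Thbd and Plau passed without any single library. That of Plaur was lost without B16F10 replicate 3 (0.62, edgeR adjusted p = 0.0585) or 5 (0.39, 0.0765), and that of Procr without B16F10 replicate 3 (0.45, 0.118), 4 (0.42, 0.0575) or 5 (0.45, 0.0549). Without the 3 endothelium-rich libraries the score spanned 3.90 to 5.06, and 0 of all tested genes had a slope that passed. The slopes were then 1.63 for Thbd, 0.35 for Plau, 0.61 for Plaur and 0.036 for Procr. Those of Plat and Vwf were -0.049 and -0.49.

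Plat and Vwf had positive slopes that did not pass, 0.73 ± 0.20 (SE; edgeR adjusted p = 0.0622) and 0.47 ± 0.15 (0.121). Both passed without B16F0 replicate 1 (Plat 0.78, edgeR adjusted p = 0.00145, and Vwf 0.52, 0.00963) and without B16F0 replicate 5 (Plat 0.83, 0.0373, and Vwf 0.59, 0.0168). F3, F8 and Tfpi had slopes of -0.15 ± 0.13, -0.18 ± 0.14 and -0.12 ± 0.098 (SE; edgeR adjusted p = 0.524, 0.508 and 0.526). In the endothelium-rich libraries F8 was at 6.40 and 3.48 CPM in B16F10 and at 14.2 CPM in B16F0, within the span of the other libraries of each line or below it. Tfpi and F3, the pair with the highest mean levels per kilobase over all 12 libraries, were thus among the 3 genes of lowest slope. In B16F0 alone, Plau and Procr stood above F3, at 24.6 and 16.5 against 15.3 CPM per kilobase.

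**Figure D3:**
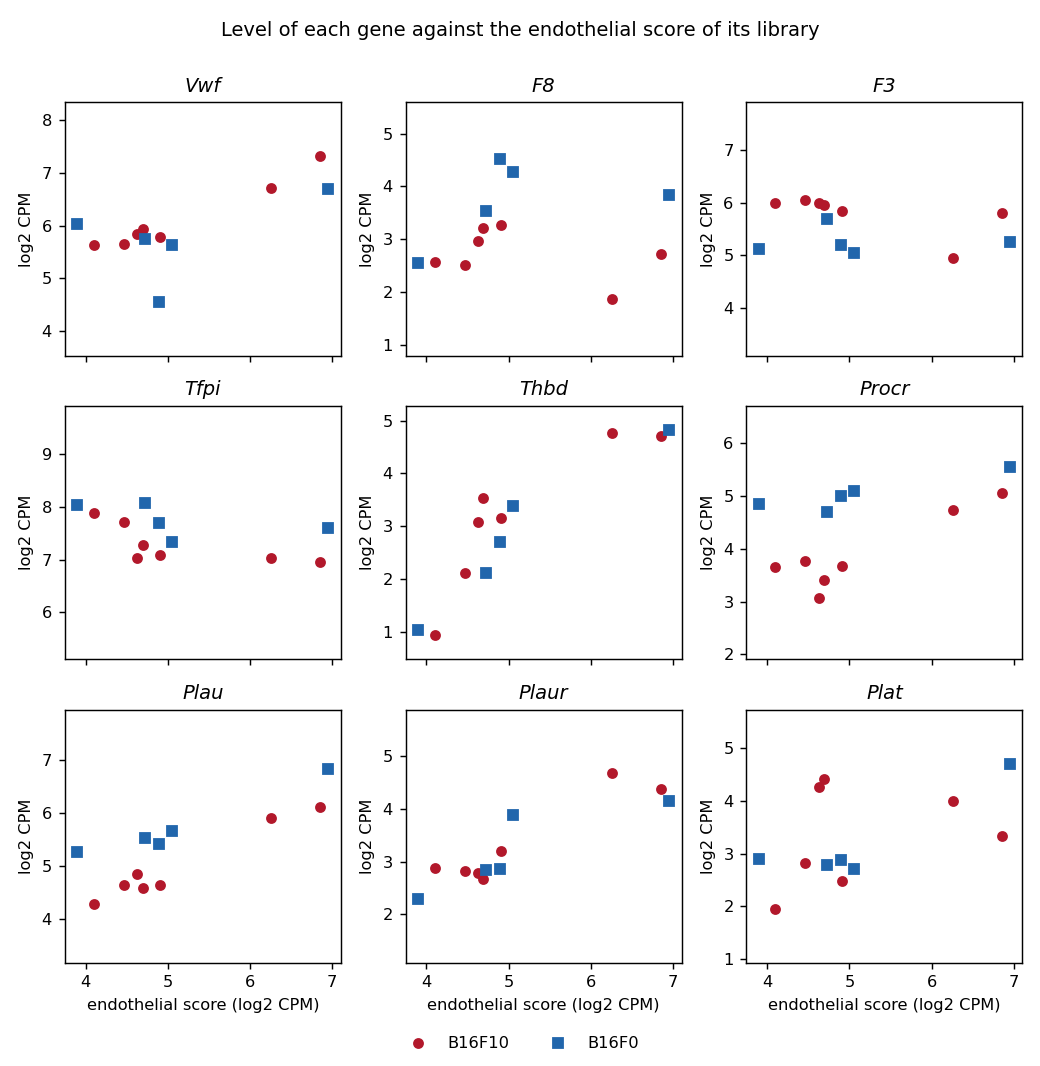
Log2 CPM of each gene (vertical axis, the same span of units in every panel) against the endothelial score of the library (horizontal axis, log2 CPM), for B16F10 (red circles) and B16F0 (blue squares). Over all 12 libraries Thbd climbs with the score in both lines with slope 1.17, and F3, F8 and Tfpi show no climb. Procr and Plau climb with B16F0 above B16F10. Without the 3 endothelium-rich libraries their slopes were 0.036 and 0.35.

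Scores of other cells gave a partly different grouping. Mural cells, the pericytes and smooth muscle that wrap vessels, had a score of 3.98 ± 0.96 in B16F10 and 3.13 ± 0.51 in B16F0 (SD, n = 7 and 5; exact permutation test, two-sided, p = 0.115, adjusted over 5 scores 0.287). The 9 mural markers tested of 10 summed to 107 to 438 CPM in B16F10 and 95.1 to 383 CPM in B16F0. Plat was the 1 of 9 genes with a slope on the mural score that passed (1.15 ± 0.27, SE; edgeR adjusted p = 0.0261), against 7.50% of all genes with a positive slope. The slope was 0.93 with the endothelial score beside it (edgeR adjusted p = 0.0163), and that of Vwf then also passed (0.59, 0.0357). Plat was at 18.9 and 21 CPM in B16F10 replicates 1 and 2, whose mural scores of 5.27 and 5.36 were the highest, and their fibroblast scores of 5.23 and 5.61 were the highest as well. The part of either cell type in the Plat level was not tested. The call of Plat depended on 4 libraries, since leaving out B16F10 replicate 1, 2 or 3 or B16F0 replicate 3 ended it. The number of all tested genes with a mural slope, 1688 over all 12 libraries, was then 50, 203, 700 and 206.

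On the melanocytic score, which was 8.72 ± 0.33 in B16F10 and 9.10 ± 0.28 in B16F0 (SD, n = 7 and 5; exact permutation p = 0.0669, adjusted 0.287), 3 of 9 genes had a negative slope that passed, against 14.6% of all genes. These were Vwf (-1.64 ± 0.27, SE; edgeR adjusted p = 0.00242), Plau (-1.63 ± 0.33, 0.00579) and Plat (-2.15 ± 0.55, 0.0145). With the endothelial score beside it, only Vwf of the 9 passed (-1.64, edgeR adjusted p = 0.0253). The slopes of Plau and Plat on this score were lost without B16F10 replicate 3, and that of Plat also without B16F0 replicate 3. Over all tested genes the slopes that passed on it numbered 3765 with all libraries and 516 and 1167 in these settings. After removal of line and lane the melanocytic and endothelial scores had a Pearson r of -0.783 over the 12 libraries, which share their depth and scaling. The 12 melanocytic markers, all tested, summed to 9140 to 19500 CPM in B16F10 and 11400 to 19600 CPM in B16F0, and their part in these slopes was not tested. F8 was the member with the largest positive slope on the melanocytic score (0.73 ± 0.32, SE; edgeR adjusted p = 0.109), which did not pass.

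On the macrophage and fibroblast scores 0 of 9 genes passed in edgeR's test, and 0 in limma-voom, against 0.0222% and 0.199% of all genes. At an unadjusted p under 0.05 there were 0 on the macrophage score and 2 on the fibroblast score, Plat higher and F8 lower. Plaur and Plau, which macrophages also express, had slopes of 0.47 ± 0.37 and 0.17 ± 0.37 (SE) on the macrophage score.

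**Figure D4:**
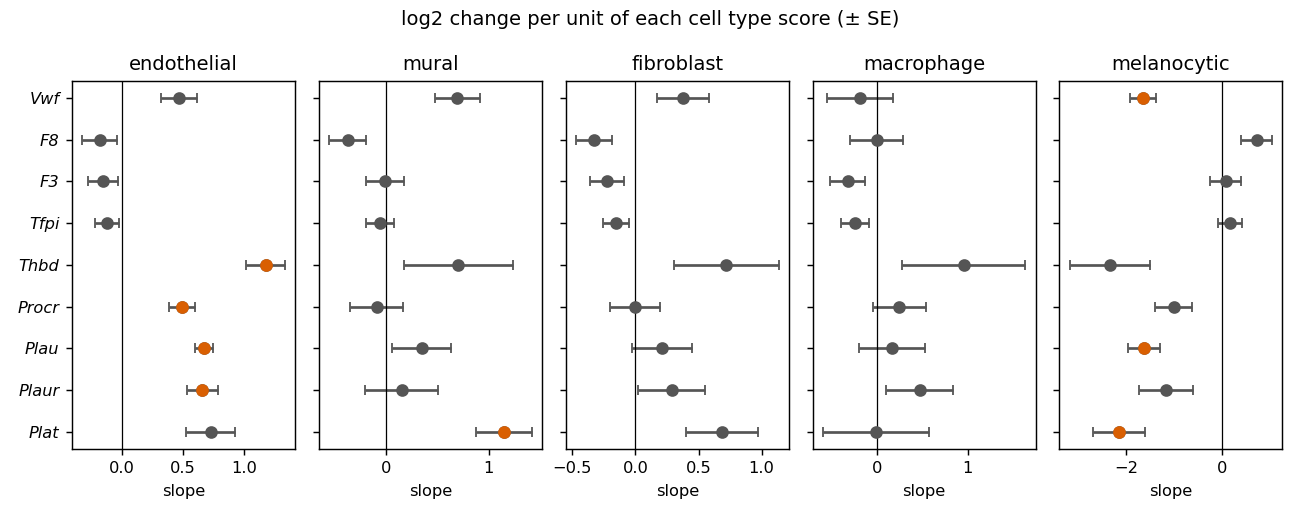
Slope of each gene in log2 CPM per unit of 5 cell type scores (horizontal axes, ± SE), with line and lane in the fit, and the axes differ in range. Orange points passed the false discovery rate over all genes: Thbd, Procr, Plau and Plaur on the endothelial score, Plat on the mural score, and Vwf, Plau and Plat, with negative slopes, on the melanocytic score.

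Genes of like pattern were read from log2 CPM after removal of line and lane means, as a description over 12 libraries that share depth and scaling. Among 10470 genes of at least 5 CPM, Thbd was closest to Sox18 (r = 0.982), an endothelial transcription factor gene, then to Klhl6 and 1810011O10Rik. Sox18 is in the endothelial score, so this likeness is not separate from the slope of Thbd. Plau was closest to Sdc3, Vwa1 and Pde4b (r = 0.995, 0.994 and 0.987), and Plaur to Slc9a3r2, Tmem88 and Vasp (0.963, 0.961 and 0.958). The nearest to Procr were Carhsp1, Cdr2l and Mylip (0.970, 0.962 and 0.961), and the nearest to Plat were Ebf1, a transcription factor gene, Pmepa1 and Nfkb1 (0.979, 0.960 and 0.957). Vwf was nearest to Taok2, 1500015A07Rik and Bcr (0.971, 0.971 and 0.970). For the genes without a positive slope they were Slc25a36, Zfp386 and Mynn for F3 (0.975, 0.974 and 0.970), Acbd3, G6pc3 and Pigx for F8 (0.975, 0.965 and 0.953) and Tmem184c, St3gal6 and Pigp for Tfpi (0.975, 0.964 and 0.957). Among the members, Plau and Thbd had an r of 0.912, Plaur and Thbd 0.894, F3 and Tfpi 0.788, and F8 and Vwf -0.80.

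Upstream windows of 250 bases from RefSeq (GRCm38.p6) were found for 5 of the 9 genes. Shown are those of Procr and Plaur, which varied together with the endothelial score (r = 0.808 between them), and of F3, whose slope on it did not pass. All are written 5′ to 3′ on the gene's strand, ending at the base before the RefSeq start, and capitals mark the letters TGANTCA, the binding motif of the transcription factor AP-1, which read the same on both strands. The windows lie at chr2:155750967-155751216, chr7:24462233-24462482 and chr3:121723287-121723536, each on the plus strand. The Procr window ends past 155751117, the start of the gene in GENCODE, so its last part lies inside the gene span given above.
Procr: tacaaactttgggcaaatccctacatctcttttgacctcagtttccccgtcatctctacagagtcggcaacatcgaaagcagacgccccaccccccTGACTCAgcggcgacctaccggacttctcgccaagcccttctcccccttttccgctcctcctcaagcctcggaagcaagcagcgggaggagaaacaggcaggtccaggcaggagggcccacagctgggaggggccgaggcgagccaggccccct
Plaur: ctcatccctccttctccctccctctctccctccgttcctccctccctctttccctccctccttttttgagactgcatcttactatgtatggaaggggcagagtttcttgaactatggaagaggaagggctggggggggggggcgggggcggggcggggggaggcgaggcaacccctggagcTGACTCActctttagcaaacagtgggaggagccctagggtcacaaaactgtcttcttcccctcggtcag
F3: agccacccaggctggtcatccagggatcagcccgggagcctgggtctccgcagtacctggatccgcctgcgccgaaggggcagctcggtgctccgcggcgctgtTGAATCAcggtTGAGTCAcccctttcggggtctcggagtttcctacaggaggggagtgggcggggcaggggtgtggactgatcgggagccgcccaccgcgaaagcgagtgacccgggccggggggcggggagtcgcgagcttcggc
The motif stood at -154 in Procr, at -69 in Plaur and at -146 and -135 in F3, counted from the RefSeq start. It was found in 3 of the 5 genes and in 6.75% of 32851 RefSeq windows of this length. The GC box GGGCGG, searched on both strands, was found 3 times in Plaur, 3 times in F3 and not in the window of Procr, and in 32.7% of all windows. The TATA box TATAAA, also searched on both strands, was found in none of these 3 windows and in 12.4% of all. The window of F8 and the 2 windows of Tfpi, genes whose endothelial slopes also did not pass, are not shown. They held no AP-1 match, and 1 window of Tfpi held the letters of the TATA box at -127, on the strand opposite to the gene. A match of letters does not show binding.

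Of 48 other genes of clotting, anticoagulation, plasminogen activation, thrombin signalling and Weibel-Palade storage, 30 passed the filter on low counts. The other 18, most of them plasma proteins made by the liver such as F2, Fga and Plg, had at most 21 counts in any library. Of the 30, 0 passed in edgeR's test between the lines, without or with the endothelial score, and 0 in DESeq2 or limma-voom, against 2.77% and 3.53% of all genes in edgeR. At an unadjusted p under 0.05 there was 1 higher gene without the score, Mrc2, and with it Mrc2 higher and Anxa2, Cd63 and Tfpi2 lower. With the mural score as a further term F2rl2 passed, lower in B16F10. The median log2 fold change was -0.024 without and -0.091 with the score.

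Clotting factors and their processing genes gave 0 of 8 tested genes. Lman1 and Mcfd2, which encode the receptor complex that carries factors V and VIII out of the endoplasmic reticulum, stood at 148 ± 42.6 and 116 ± 51.7 CPM in B16F10 and at 172 ± 39.2 and 104 ± 9.16 CPM in B16F0 (SD, n = 7 and 5). Their log2 fold changes with the score were -0.20 and 0.11, beside -1.05 for F8. Among 6 anticoagulant genes Pros1, which encodes the protein C cofactor protein S, stood at 70.8 ± 21.7 CPM in B16F10 and 91.8 ± 24.5 CPM in B16F0. Entpd1, which encodes an enzyme that breaks down platelet-activating ADP, stood at 26.9 ± 18.9 CPM in B16F10 and 34.4 ± 30.7 CPM in B16F0.

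Among 8 genes of the plasminogen system Lrp1, a clearance receptor of uPA, and Anxa2, a binding site of plasminogen and tPA, had log2 fold changes of -0.12 and -0.33 with the score. Of 3 thrombin receptor genes F2r, the main one of endothelium, stood at 47.3 ± 36.3 CPM in B16F10 and 55.0 ± 64.1 CPM in B16F0 (SD, n = 7 and 5), and F2rl3 at 1.63 ± 1.88 CPM in B16F10 and 1.96 ± 1.76 CPM in B16F0. Of 5 Weibel-Palade genes Angpt2, a vessel-destabilising ligand stored beside von Willebrand factor, and Igfbp7 had log2 fold changes of -0.036 and -0.087 with the score.

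Slopes on the endothelial score were positive and passed for 7 of these 30 genes and negative for none past the threshold, against 4.32% positive and 0.369% negative over all genes. They were Igfbp7 (1.2, edgeR adjusted p = 2.5e-05), F2rl3 (1.32, 0.00315), Selp (1.11, 0.00772), Tfpi2 (0.99, 0.00044), Entpd1 (0.91, 0.000261), F2r (0.75, 0.0107) and Angpt2 (0.70, 0.00654). By list these were 3 of 5 Weibel-Palade genes, 2 of 3 thrombin receptors, 2 of 6 anticoagulants and none of the clotting factors or plasminogen genes. Edn1 and Cd63 of the Weibel-Palade list had slopes of 0.42 and -0.34 that did not pass (edgeR adjusted p = 0.33 and 0.165). Selp, Tfpi2, Edn1, Cd63 and, among those at an unadjusted p, Mrc2 were named after their values were seen.

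**Figure D5:**
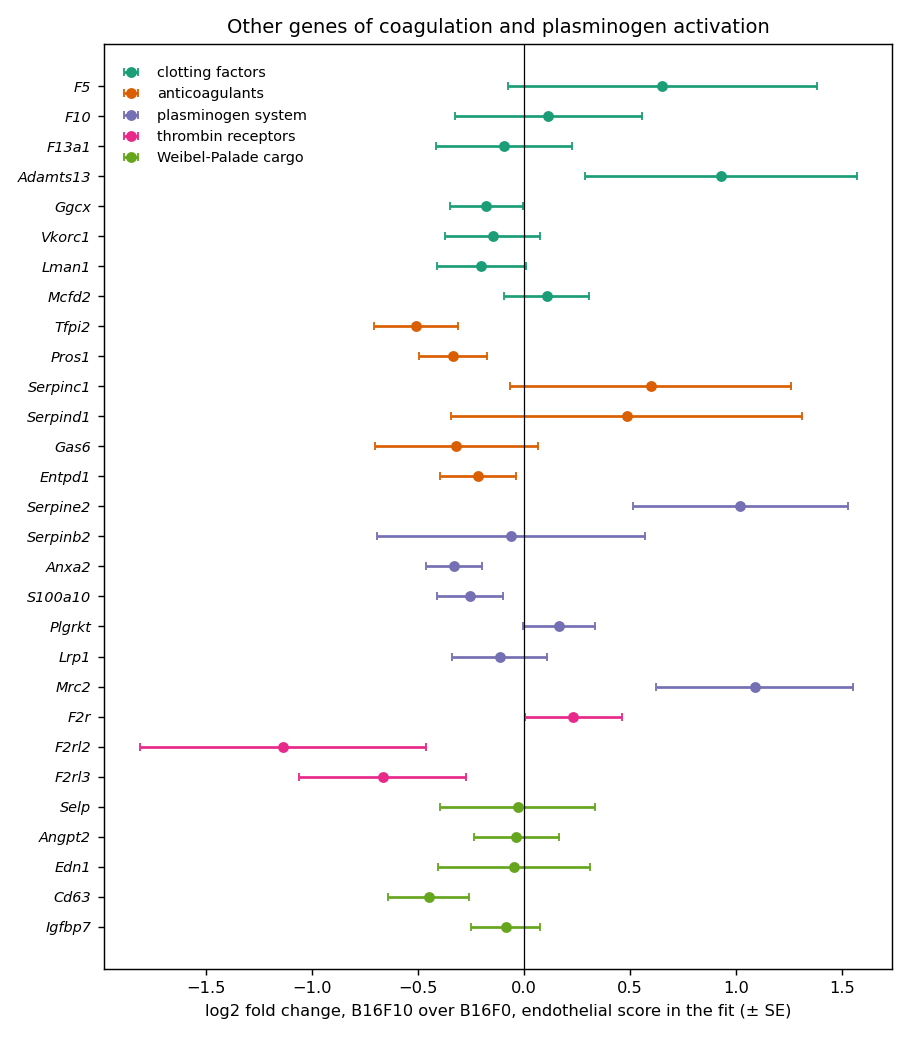
Log2 fold change, B16F10 over B16F0 (horizontal axis, ± SE), of the other pathway genes tested, 1 of which is not plotted, with lane and endothelial score in the fit and coloured by list. None passed the false discovery rate over all genes, and the median over all 30 is -0.091.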

How the data were processed

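Read counts per gene symbol were deposited by the authors as whole numbers for 12 libraries of ribosome-bound mRNA. The submitters' processing notes name mm10 as the genome build, and as tools featureCounts 1.6.0, STAR 2.2.1, cutadapt 1.16, R 3.3.2 and edgeR. Which annotation and strand setting were used is not given in the sources used here. The authors' deposited table of log2 fold changes and p-values was read with its decimal comma as a point, and the table of normalized values was left out because it had lost its decimal marks.

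Groups came from the labels and lanes 1, 2 and 6 from the library names. Of 24421 symbols 13534 passed filterByExpr (minimum count 10) in edgeR 4.0.16 (R 4.3.3), and its quasi-likelihood F test was run on TMM-scaled counts with Benjamini-Hochberg adjustment over all genes at 0.05. The design was lane and line, or lane, line and endothelial score. Log2 CPM used a prior count of 2. Standard errors are the coefficient divided by the square root of F. Slopes used 1 score at a time unless stated. The shallowest library, B16F10 replicate 1, limits the precision of the lowest genes most. Libraries of a group differed beyond counting noise (lowest chi-square per degree of freedom 8.23). Coordinates and exon lengths are from GENCODE release M21. The members and lists were chosen with earlier results of these data known. All members were named, and of the other lists any called gene or else the 2 of highest mean CPM, and for each member the 3 of highest r. The tests were tried on simulated data. Alternatives were RLE scaling, other filters, DESeq2 1.42.0, limma-voom (3.58.1), other batch terms, further scores, the Ddx3y level, a shorter endothelial list, a false discovery rate of 0.1 and left-out libraries. For 1 gene of the other lists no values are reported here.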

Additional observations from a re-analysis of the deposited data

Results flagged for a closer look

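In a group of 4 to 10 libraries, 1 that lies far from the rest of its group is singled out by the size of its gap to them, which chance alone does in about 1 in 20 groups. Of 18 checks on the 9 genes 3 were singled out. F3 in B16F10 replicate 5 stood at 30.8 CPM, with the other 6 libraries between 55.6 and 66.1 CPM. That library held 31.4% of its counts in Rn45s, and the part of this in the F3 level was not tested. Plau in B16F0 replicate 3 stood at 114 CPM, with the other 4 between 38.2 and 50.3 CPM. Plat in the same library stood at 25.9 CPM, with the others between 6.41 and 7.33 CPM. B16F0 replicate 3 had the highest endothelial score of that line, 6.95, and also its highest mural score, 3.99.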

How the results depend on the processing

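Without the endothelial score 1 of the 9 genes passed between the lines. The count was 2, F8 and Procr, with no filter on low counts, with DESeq2, with limma-voom and at a false discovery rate of 0.1. It was also 2 with the melanocytic score added (Plau and Procr) and with the library name prefix in place of lane (F8 and Procr). In lane 2 the lines have different prefixes, which were joined into 1 level, so line and prefix cannot be told apart there. The count was 0 with no lane term, without lane 2 or with the mural score added. It was 3 without the 3 endothelium-rich libraries (F3, Plau and Procr). With the Ddx3y level added it stayed at 1, and at 3 with the endothelial score beside it. Leaving out 1 library gave 0 to 3, and with the endothelial score, where the count was 3, it gave 2 to 4. For the other pathway genes, of which 0 passed, it gave 0 in every case, the mural score added gave 2 in both fits, and the melanocytic score added to the endothelial score gave 1.

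Leaving out 1 library gave 2 to 6 genes with an endothelial slope (4 with all libraries), 0 to 2 with a mural slope (1), 1 to 5 with a melanocytic slope (3) and 0 with a macrophage or fibroblast slope. Without the 3 endothelium-rich libraries 0 had an endothelial slope. With the endothelial score added 2 had a mural and 1 a melanocytic slope, and limma-voom gave 2 on the mural score.

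The differences of scores between the lines, B16F10 minus B16F0, ranged from -0.28 to 0.48 (endothelial), 0.62 to 1.06 (mural), -0.27 to 0.25 (macrophage), 0.44 to 1.15 (fibroblast) and -0.48 to -0.29 (melanocytic) when 1 library was left out, chosen after seeing the data. The endothelial difference was -0.26, -0.17, -0.029, -0.073 and -0.28 without B16F10 replicates 4 and 5 and B16F0 replicates 1, 4 and 5, and the macrophage difference 0.019, 0.25, 0.20 and 0.14 without B16F10 replicates 6 and 7 and B16F0 replicates 1 and 2. The melanocytic difference passed unadjusted without B16F10 replicate 3 (-0.47, exact permutation p = 0.0173) and B16F0 replicate 3 (-0.48, 0.0364).

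Same-numbered libraries of the lines, which the labels do not tie to a shared source, deviated together with r from -0.287 to 0.322 over numbers 1 to 5. With the replicate block in place of lane 0 of the 9 genes passed without and 0 with the endothelial score, and 1, 0 and 0 had an endothelial, mural or melanocytic slope. Over all genes 58 and 18 passed between the lines under the block and 101, 1480 and 0 had these slopes, and with the score the log2 fold changes were -0.76 for Plau, -1.25 for Procr and -0.96 for F8. The causes of these changes were not tested. Depth limits the lowest counts most, such as F8, with 30 to 341 counts per library.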
